A study of Mus musculus with 3 samples.

Results

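The regions described here are 10 kb stretches of the mouse autosomes in which the DamID profile labelled Dam-Lap2b stood well above the profile labelled Dam-Lamin A. They were chosen by the deposited log2 values: fragments were put into 10 kb bins by their middle, bins with at least 10 fragments were kept, and a bin was taken when its mean in the Dam-Lap2b profile exceeded its mean in the Dam-Lamin A profile by 1 or more. A difference of 1 on this scale is a factor of 2. Of 239157 bins, 16190 met this rule, or 6.77%, and they are called Lap2b-higher bins below. The opposite difference, Dam-Lamin A above Dam-Lap2b by 1 or more, was found in 10524 bins, or 4.4%. Because the levels chose the bins, every level and difference below is a description of these 2 libraries and carries no test.

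The nuclear lamina is a meshwork of lamin filaments under the inner nuclear membrane, and the chromatin that lies against it forms lamina-associated domains, which are mostly gene-poor and weakly transcribed. Lamin A is a filament protein of that meshwork and is also found in the nuclear interior, whereas Lap2b is anchored in the inner nuclear membrane and binds lamins. DamID fuses such a protein to the bacterial enzyme Dam, which methylates adenine in GATC, so that DNA near the fusion protein is marked. The DNA between marked sites is then amplified for sequencing, and unfused Dam serves to measure how accessible the DNA is to the enzyme.

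The cells were C57BL/6 embryonic fibroblasts of wild type genotype. Retroviral transduction gave them Dam alone, Dam fused to Lap2b or Dam fused to Lamin A, with 1 sample in each of the 3 groups, so that all groups carried a Dam retrovirus. The cell type could not be checked against marker genes, since the profiles hold DNA contacts and no expression. A profile and a list of domains were used for each fusion, and the Dam-only library was not analysed here as a file of its own. No replicates exist, so the spread given is over bins or over the 19 autosomes, which are parts of the same 2 libraries. Coordinates are mm9, counted from 1.

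Profiles and lists went against their labels, which touches every result below. Where the Dam-Lamin A list had a domain and the other list had none, the profile of that label averaged −0.03 ± 0.71 (SD over 14760 bins) and the Dam-Lap2b profile 0.45 ± 0.47. In bins of the Dam-Lap2b list alone, the profile of that label averaged 0.03 ± 0.68 (6229 bins) and the Dam-Lamin A profile 0.38 ± 0.61. In both places the lower profile was the one that shares its label with the list. Profiles and lists are therefore named by their labels throughout. Whether profiles or lists were exchanged was not tested. The levels, runs, chromosomes and fragment lengths below do not use the lists, but their direction also rests on the profiles' labels and would turn if the profiles were exchanged.

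Set against all bins together, the Lap2b-higher bins stood out by low Dam-Lamin A levels rather than by high Dam-Lap2b levels. In the Dam-Lamin A profile they averaged −1.12 ± 1.09 (SD over bins), against 0.19 ± 1.33 over all bins. In the Dam-Lap2b profile they averaged 0.18 ± 1.05, against 0.26 ± 1.26 over all bins. The median Lap2b-higher bin had −1.32 in the former profile and −0.01 in the latter. Of the Lap2b-higher bins, 83.4% lay below the mean of all bins in the Dam-Lamin A profile. In the Dam-Lap2b profile, 41.5% of them lay above the mean of all bins. Set against all bins of the same place on the lists, more lay above. These were 73.3% in neither list, 69.2% in both lists and 53.7% in the Dam-Lamin A list alone. Below the mean of their place in the Dam-Lamin A profile lay 92.8%, 98.1% and 93.9%. Bins with the opposite difference averaged 0.22 in the Dam-Lamin A profile and −1.15 in the Dam-Lap2b profile. They too departed from all bins mainly in their lower profile, so this trait was not particular to the Lap2b-higher bins. With fragments weighted by their length, 44643 bins met the rule and both profiles departed: they averaged −0.80 against 0.02 over all bins in the Dam-Lamin A profile, and 0.60 against 0.38 in the Dam-Lap2b profile.

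The same levels can be written as reads, which restates the values that chose the bins. Whole numbers recovered from the log2 values, which are lower bounds of the reads, gave a median of 231 Dam-Lamin A reads per Lap2b-higher bin and 466 per bin over all bins. For Dam-Lap2b the medians were 605 and 560 reads, and for the reference behind both profiles 536 and 395. Over all places together, a Lap2b-higher bin therefore held about as many Dam-Lap2b reads as all bins, more reference reads and fewer Dam-Lamin A reads. By place on the domain lists this differed. In neither list the Dam-Lap2b medians were 591 and 426, and the reference medians 832.5 and 774. In both lists these were 628 and 685, and 185 and 233. In the Dam-Lamin A list alone they were 612 and 603, and 409 and 414. Dam-Lamin A medians were lower in each of these places, at 218 against 366, 260 against 602 and 230.5 against 389.

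**Figure D1:**
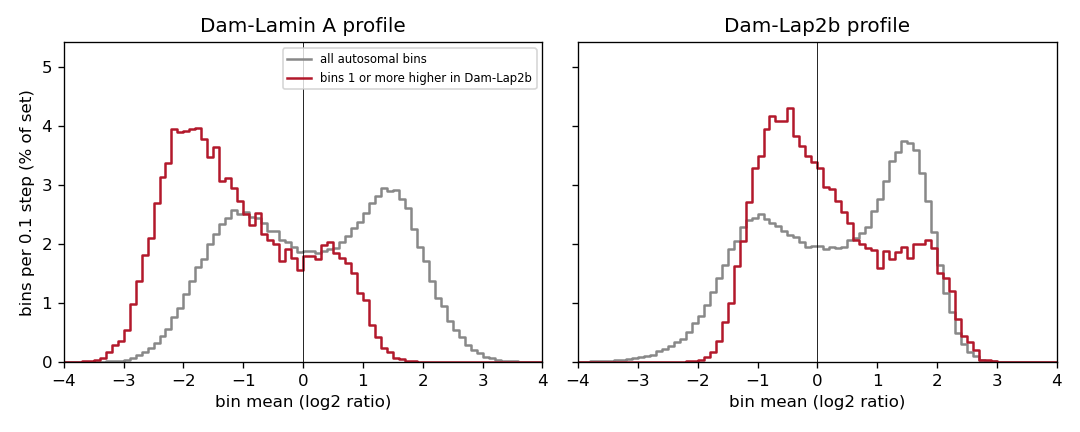
Share of bins in each 0.1 step of the bin mean (log2 ratio, horizontal axis) in the Dam-Lamin A profile (left) and the Dam-Lap2b profile (right), for all 239157 autosomal bins (grey) and the 16190 Lap2b-higher bins (red). The red curve is shifted to lower values in the left panel, where its median is −1.32 against 0.23 for all bins.

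The sign of the levels sorted the bins into 3 kinds. Both profiles were below 0 in 50.5% of the Lap2b-higher bins, against 39.4% of all bins. Both were above 0 in 19.99%, against 51.3% of all bins. In the other 29.5%, or 4777 bins, the Dam-Lap2b profile was above 0 while the Dam-Lamin A profile was below it, an arrangement seen in 6.42% of all bins. In most of the bins both profiles thus had the same sign, but less often than over all bins.

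Differences crowded towards the threshold. The mean difference was 1.31 ± 0.28 (SD over bins) and the median 1.23. A difference of 1.5 or more was reached by 3250 bins, of 2 or more by 440 and of 3 or more by 3. Just inside the threshold lay chr11:61410001-61420000, chr16:90820001-90830000 and chr6:11440001-11450000, with differences of 1.000007, 1.000031 and 1.000039. The nearest bins outside it were chr2:117690001-117700000, chr8:111300001-111310000 and chr3:97800001-97810000, with 0.999996, 0.999938 and 0.999930. The bins on both sides of the threshold thus ran into each other without a gap.

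The 5 bins with the largest differences lay on 5 chromosomes and in 3 kinds of place. In chr9:90590001-90600000, inside a domain of both lists and 415 kb from the nearest edge of the Dam-Lamin A list, the Dam-Lamin A level was −1.61 and the Dam-Lap2b level 1.52. Its 12 fragments held 131 Dam-Lamin A reads and 806 Dam-Lap2b reads, and the difference was above 0 in all 12. This bin is a deep dip of 1 profile within a domain that both lists contain.

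In chr2:14990001-15000000, in the Dam-Lamin A list alone, the levels were −2.47 and 0.66, from 29 Dam-Lamin A and 445 Dam-Lap2b reads on 11 fragments. The remaining 3 lay in neither list. In chr16:52140001-52150000 the Dam-Lamin A level was −2.94 and the Dam-Lap2b level 0.06. In chr10:16700001-16710000 they were −3.47 and −0.49, and in chr3:64790001-64800000 they were −3.04 and −0.10. Their differences were 3.003, 2.98 and 2.93, and 15 of 16, 17 of 18 and 11 of 11 fragments had a difference above 0. Dam-Lap2b levels in these 3 were above the mean of −0.903 over all bins in neither list. Their Dam-Lamin A levels were far below the mean of −0.996 there, and they held only 48, 57 and 88 Dam-Lamin A reads.

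Single fragments within a bin varied widely. The standard error of a bin's difference, from the spread of its fragments, had a median of 0.32 in Lap2b-higher bins and 0.27 over all bins. To compare fragments that chose the bins with fragments that did not, bins were also chosen on the odd-numbered fragments alone. The difference was then read on the even-numbered ones. The 18668 bins so chosen had a mean difference of 1.34 on the fragments that chose them and 1.045 ± 0.51 (SD over bins) on the other fragments, against 0.07 over all bins. On those other fragments 98.6% of the bins were above 0 and 51.7% reached 1, against 53.5% and 7.825% of all bins. Choosing on the even-numbered fragments gave 18714 bins and 1.045 on the odd-numbered ones. Neighbouring fragments share a GATC site and a library, so these are not replicates.

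Placed on the domain lists, more Lap2b-higher bins lay outside domains than in any other place. Of the 16190 bins, 57.7% lay in neither list, against 44.4% of all bins. The exact Clopper-Pearson 95% interval of this share was 56.9 to 58.4%. That interval is for the counting of bins only and treats neighbouring bins as independent, which they were not. Another 25.5% lay in both lists, against 46.8% of all bins. The Dam-Lamin A list alone held 16.6%, against 6.17% of all bins, and the Dam-Lap2b list alone held 37 bins, or 0.2285%, against 2.605%. Shares in neither list and in the Dam-Lamin A list alone were above those of all bins on 19 of 19 autosomes, and ranged from 46.4 to 72.1% and from 9.69 to 23.8% over them. Lists and profiles were presumably made from the same libraries, so these shares are not independent of the rule. With fragments weighted by length the share in neither list was 46.7%, so that it was no longer a majority.

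Read the other way, 18.2% of the bins of the Dam-Lamin A list alone were Lap2b-higher (9.01 to 25.9% over autosomes), against the background of 6.77%. In neither list the share was 8.79%, in both lists 3.69% and in the Dam-Lap2b list alone 0.594%. The opposite difference had the reverse order, with 12.8% of bins in the Dam-Lap2b list alone and 0.278% in the Dam-Lamin A list alone. Domains of the Dam-Lamin A list that had no overlap with the other list numbered 299 on the autosomes, and 14.99% of their bins were Lap2b-higher. In the 171 domains of the Dam-Lap2b list without overlap the share was 0.6205%.

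Levels of the Lap2b-higher bins differed by place, but in each place the Dam-Lamin A profile departed more from its usual level. Within both lists, 4135 Lap2b-higher bins had 0.34 ± 0.54 in the Dam-Lamin A profile and 1.60 ± 0.52 in the Dam-Lap2b profile. Compared with all bins in both lists, the former was lower by a difference of −0.99 and the latter higher by 0.25. In neither list, the 9334 bins had −1.86 ± 0.58 and −0.54 ± 0.54, departures of −0.87 and 0.36 from all bins there. In the Dam-Lamin A list alone, the 2684 bins had −0.81 ± 0.52 and 0.52 ± 0.47, departures of −0.78 and 0.07. Lap2b-higher bins of the last kind had a Dam-Lap2b level near the mean of all bins of that class. Of these 2684 bins, 83.05% were below 0 for Dam-Lamin A and above 0 for Dam-Lap2b, against 40.2% of all bins of that class. Bins with the opposite difference in neither list averaged −0.61 (Dam-Lamin A) and −2.04 (Dam-Lap2b), against −0.996 and −0.903 over all bins there. In both lists they averaged 2.26 and 1.03, against 1.33 and 1.35.

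Edges of the Dam-Lap2b list divided these bins sharply. In the 10 kb outside its edges 20.2% of bins were Lap2b-higher, 810 of 4009, and the range over autosomes was 11.9 to 32.8%. In the 10 kb inside the share was 2.07%, 91 of 4387, with a range of 0 to 4.46%. The share was higher outside on 19 of 19 autosomes. Going outward it fell to 17.6% at 10 to 20 kb, 12.96% at 50 to 100 kb, 9.79% at 200 to 500 kb and 5.92% beyond 1 Mb. Going inward it rose from 2.07% at the edge to 2.67% at 10 to 20 kb and 3.65% at 20 to 30 kb. It then was 3.25% at 50 to 100 kb and 3.46% at 200 to 500 kb. Only deeper was it higher, at 4.21% from 500 kb to 1 Mb and 4.44% beyond 1 Mb. Since the lists were presumably made from the same libraries, shares by edge, stretch and domain are not independent of the rule either.

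Across these edges both profiles stepped up, the Dam-Lamin A profile by more. In the 10 kb outside they averaged −0.44 in the Dam-Lamin A profile and 0.07 in the Dam-Lap2b profile, and in the 10 kb inside they averaged 0.66 and 0.62. At the edges of the Dam-Lamin A list no such break was seen in the share. It was 10.2% in the 10 kb outside and 10.6% in the 10 kb inside, with its peak of 15.03% at 10 to 20 kb outside. It then declined to 4.14% beyond 1 Mb outside and to 4.56% at 200 to 500 kb inside. Deeper inside it was 4.94% from 500 kb to 1 Mb and 5.235% beyond 1 Mb.

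**Figure D2:**
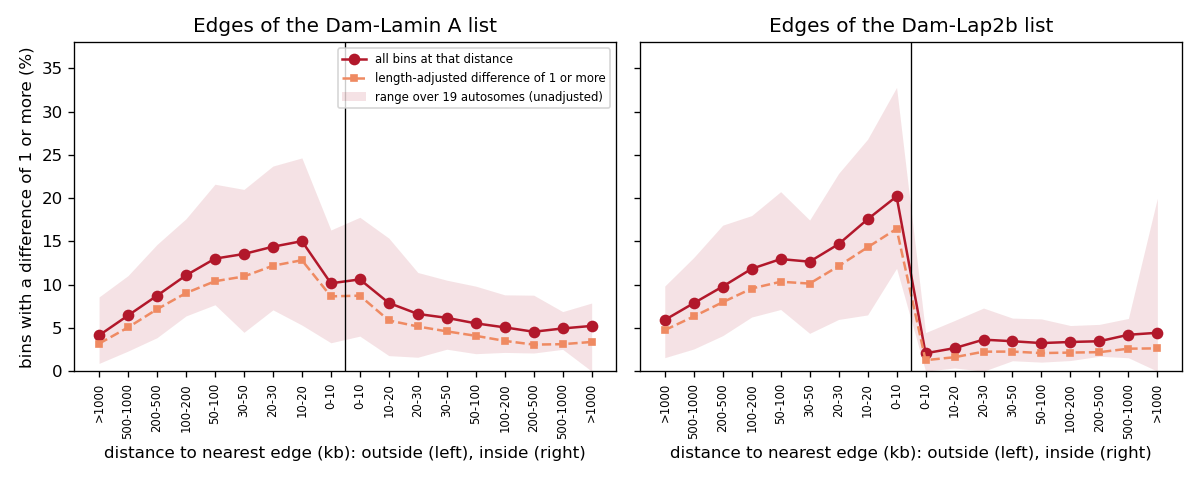
Share of bins with a difference of 1 or more (vertical axis, percent) by distance of the bin middle to the nearest edge of the Dam-Lamin A list (left) and the Dam-Lap2b list (right), outside to the left of the vertical line and inside to the right. Circles are all bins, the band is the range over 19 autosomes and dashed squares are differences adjusted for fragment length; in the right panel the share drops from 20.2% to 2.07% across the edge.

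Short stretches between domains were richest in Lap2b-higher bins. Between domains of the Dam-Lap2b list, stretches under 100 kb held them in 24.1% of 2908 bins, stretches of 200 to 500 kb in 15.6% and stretches of 2 Mb or longer in 6.99%. Between domains of the Dam-Lamin A list the same classes had 17.0%, 14.5% and 5.44%. Within domains the length mattered less, with 7.29% of bins in Dam-Lamin A list domains of 100 to 200 kb and 5.19% in those of 2 Mb or longer. In the Dam-Lap2b list the order was the other way, with 2.87% and 4.48%. Over all places, 29.2% of Lap2b-higher bins lay within 50 kb of an edge of either list, against 21.2% of all bins and 13.1% of bins with the opposite difference.

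The domains with the most Lap2b-higher bins were long ones, which a count of bins favours. In the Dam-Lamin A list these were chr1:24778742-30823422 with 80 such bins of 604, chr3:41422840-49545228 with 65 of 810 and chr15:13328100-20560214 with 54 of 722. Over the whole of the first domain the Dam-Lamin A profile averaged 1.22 and the Dam-Lap2b profile 1.61. Its share of 13.25% was above the 5.38% of all bins in that list, whereas the shares of the other two, 8.02% and 7.48%, were closer to it. In the Dam-Lap2b list the leading domains were chr3:41562002-48887925 with 55 of 730 bins (7.53%), chr1:27689124-30634154 with 40 of 294 (13.6%) and chr2:39084438-42508817 with 40 of 343 (11.7%). Over all bins in that list the share was 3.53%.

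By the rule used here, most Lap2b-higher bins stood alone. The 16190 bins formed 13166 runs of neighbouring bins, of which 10913 (82.9%) had a single bin, 1712 had 2, 394 had 3 and 105 had 4. Runs of 5 or more bins numbered 42, and the longest had 9 bins, or 90 kb. In all, 32.6% of the bins were in runs of 2 or more, but with fragments weighted by length 55.6% of the bins taken were. Bins with the opposite difference were fewer but more connected, with 45.5% in runs of 2 or more, 134 runs of 5 or more and a longest run of 150 kb. When a single missing bin was bridged, the longest run of Lap2b-higher bins reached 180 kb and that of the opposite difference 360 kb.

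The longest run with the largest mean difference was chr4:56320001-56410000, in neither list and 1440 kb from the nearest Dam-Lamin A list edge. Along its 9 bins the Dam-Lamin A level was −2.18, −2.40, −1.75, −1.77, −1.62, −1.91, −2.48, −3.46 and −2.55. The Dam-Lap2b level was −0.18, −1.06, −0.39, −0.52, −0.52, −0.49, −0.97, −0.63 and −0.88. The 2 sets of values did not overlap, which the choice of bins by a difference of 1 or more favours. The run held 2350 Dam-Lamin A, 7803 Dam-Lap2b and 13250 reference reads on 188 fragments, so that both fusions lay below the reference and Dam-Lamin A further below it.

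In chr2:45330001-45420000 all 9 bins lay in the Dam-Lamin A list alone, 1120 kb from any Dam-Lap2b list edge. The Dam-Lamin A levels were −1.09, −1.14, −1.25, −1.16, −1.63, −1.11, −1.70, −1.20 and −1.58. The Dam-Lap2b levels were 0.17, −0.03, 0.15, 0.52, −0.41, 0.27, −0.35, 0.19 and −0.31. Reads for Dam-Lap2b and the reference were nearly equal, 4454 and 4450, while Dam-Lamin A had 1572. The run thus sat at the level of the reference in the Dam-Lap2b profile.

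The run chr4:4680001-4760000 crossed an edge of the Dam-Lamin A list in its middle. Its 4 bins outside had Dam-Lamin A levels of −2.06, −2.06, −2.18 and −2.69, and its 4 bins inside had −1.56, −0.72, −0.87 and −0.40. Dam-Lap2b levels were −0.24, −0.42, −0.74 and −0.94 outside and 0.50, 0.28, 0.22 and 0.60 inside. Only the Dam-Lap2b profile changed sign at this edge.

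The other 7 of the 10 longest runs lay in neither list. They were chr12:36170001-36260000 and chr6:43360001-43450000 with 9 bins, chr2:102850001-102930000 with 8, and chr10:16720001-16790000, chr13:32260001-32330000, chr2:37340001-37410000 and chr1:50990001-51060000 with 7. Their mean Dam-Lamin A levels ran from −2.53 on chromosome 12 to −1.42 on chromosome 1. The mean Dam-Lap2b levels ran from −0.98 to −0.16 on the same chromosomes. All 7 were below 0 on average in both profiles.

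The 5 bins on either side of these 10 runs still leaned the same way. Their mean difference ranged from 0.46 beside chr2:102850001-102930000 to 1.13 beside the run on chromosome 10, and 1 to 5 of the flanking bins were themselves Lap2b-higher. Of the 5 densest windows of 1 Mb, the first 2 held one of these runs. The window chr2:45000001-46000000 had 44 Lap2b-higher bins of 99, and chr10:16000001-17000000 had 41 of 99. The profiles averaged −0.97 (Dam-Lamin A) and −0.01 (Dam-Lap2b) in the former window, and −1.06 and −0.18 in the latter. The next 3 held none of the 10 longest runs: chr2:50000001-51000000 and chr4:13000001-14000000 had 35 Lap2b-higher bins each, and chr6:12000001-13000000 had 32.

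Around a typical Lap2b-higher bin the difference fell at the first step and then slowly out to 1 Mb. The rule favours the first fall, since it chose the bins for a difference of 1 or more and not their neighbours. In bins chosen on the odd-numbered fragments, the difference on the other fragments was 1.045. The mean difference was 1.31 in the bins themselves, 0.50 in the adjoining bins, 0.39 at 50 kb, 0.34 at 100 kb and 0.24 at 1 Mb, against 0.07 over all bins. Of the adjoining bins, 18.7% were Lap2b-higher, and at 1 Mb 9.99% were, both above the background of 6.77%. Over 2379 windows of 1 Mb the median held 5 Lap2b-higher bins. No such bin was found in 268 windows (11.3%), while 111 windows (4.67%) with 20 or more held 16.6% of them.

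The step between the bins and their neighbours, which the rule favours, was larger in the Dam-Lamin A profile. Around Lap2b-higher bins in both lists the Dam-Lamin A level went from 0.34 in the bin to 1.05 in the adjoining bins and remained at 1.02 at 100 kb. The Dam-Lap2b level went from 1.60 to 1.32 and 1.26 over the same steps. Around those of the Dam-Lamin A list only, the Dam-Lamin A level rose from −0.81 to −0.17 and 0.15, and the Dam-Lap2b level was 0.52, 0.40 and 0.55. In neither list the Dam-Lamin A level rose from −1.86 to −1.22 and −0.72, and the Dam-Lap2b level was −0.54, −0.64 and −0.36. Adjoining bins were closer to the Lap2b-higher bins in the Dam-Lap2b profile than in the Dam-Lamin A profile in all 3 places.

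**Figure D3:**
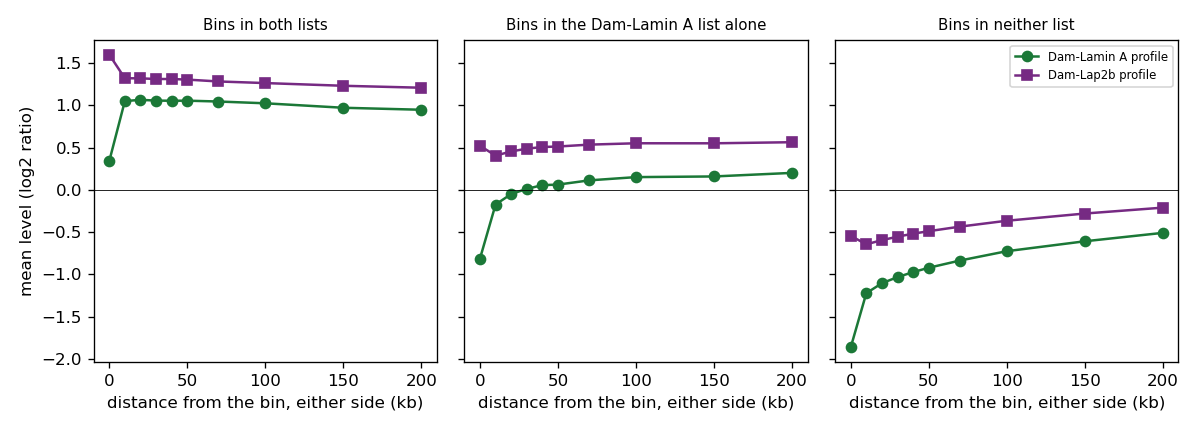
Mean level (log2 ratio, vertical axis) of the Dam-Lamin A profile (green circles) and the Dam-Lap2b profile (purple squares) in Lap2b-higher bins (0 kb) and in bins at the given distance on either side, for bins in both lists, in the Dam-Lamin A list alone and in neither list. The green line dips at 0 kb in each panel, from 1.05 to 0.34 in the left one, while the purple line moves by 0.3 or less between the bin and its neighbours. Bins at 0 kb were chosen by their difference and the others were not, which favours a step there.

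Lap2b-higher bins had few and long GATC fragments, a property that the rule did not use apart from its minimum number. Their median fragment length per bin was 387 bp (quartiles 306 and 487 bp), against 278.5 bp (218 and 354 bp) over all bins and 270 bp in bins with the opposite difference. They held a median of 19 fragments, against 24 over all bins. Fragments over 500 bp made up 39.9% of theirs and 28.05% of all. Their median length exceeded that of all bins on 19 of 19 autosomes. Among 10 equal groups of bins ordered by fragment length, the share of Lap2b-higher bins rose at each step, from 0.718% at a median of 146 bp to 24.1% at 502 bp. The opposite difference showed no such rise. Its share went from 3.16% in the first group to 5.35% in the third, then fell at each step to 3.46% in the last.

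Fragment length moved with the difference everywhere, not in these bins alone. Over all autosomal bins, fragments of 100 to 200 bp had a mean difference of −0.26, those of 400 to 500 bp 0.14, and those of 1500 to 2000 bp 0.84. The Dam-Lamin A level fell over these classes, from 0.48 to 0.15 and −0.30, and the Dam-Lap2b level rose from 0.22 to 0.29 and 0.54. In Lap2b-higher bins, which were chosen on the mean of these fragments, the mean difference was 1.04, 1.24 and 2.03 in these 3 classes.

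When the mean difference of all fragments of like length was taken off, the Lap2b-higher bins had a mean difference of 1.18, and 74.7% of them were still at 1 or more. The lowest was at 0.54. Counted afresh, 12334 of all bins reached 1 after this adjustment, and 12087 of them were Lap2b-higher bins by the rule. The break at Dam-Lap2b list edges was seen after the adjustment too, at 16.5% in the 10 kb outside and 1.28% inside. It was seen in bins with short fragments (median under 238.5 bp), at 7.30% and 0.313%, and in bins with long ones (over 325 bp), at 33.03% and 6.62%. Neither the adjustment nor the split by length makes the lists independent of the rule. What part of the difference belongs to fragment length was not tested further.

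**Figure D4:**
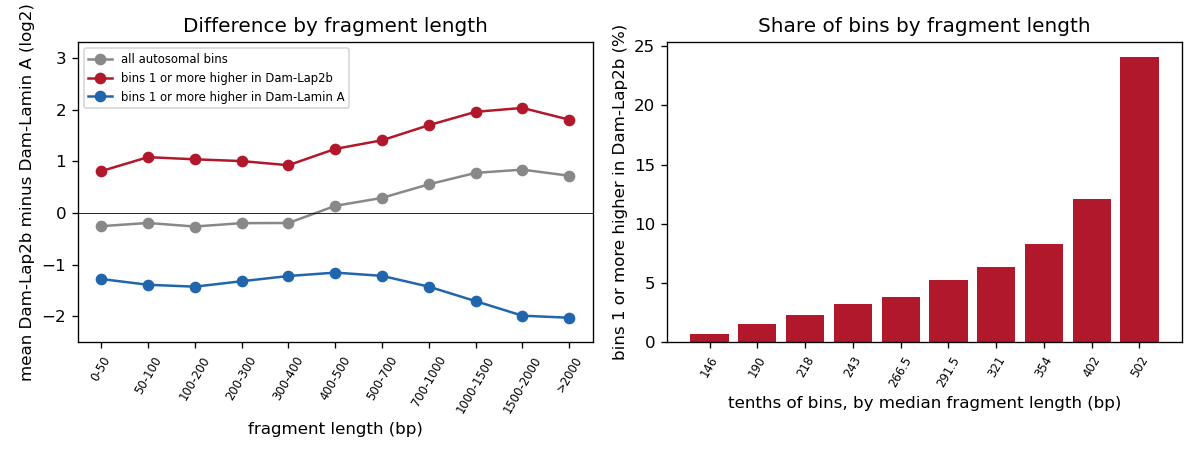
Left, mean Dam-Lap2b minus Dam-Lamin A difference (log2) of fragments by length in bp, for all autosomal bins (grey), Lap2b-higher bins (red) and bins with the opposite difference (blue). Right, share of Lap2b-higher bins (percent) in 10 equal groups of bins ordered by median fragment length, which climbs from 0.718% to 24.1%.

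Chromosomes held unequal shares. Chromosome 2 had the highest, with 1816 Lap2b-higher bins or 10.2% of its bins, and chromosome 7 the lowest, with 491 or 3.46%. Chromosomes 11 and 5 were next lowest, with 3.75% and 4.05%, and chromosomes 13 and 3 next highest, with 8.70% and 8.57%. Chromosomes 5, 7 and 11 were the only autosomes with more bins of the opposite difference, at 9.495%, 5.97% and 10.3%. Levels of the Lap2b-higher bins varied less, from −1.46 on chromosome 13 to −0.90 on chromosome 14 in the Dam-Lamin A profile and from −0.14 to 0.37 on the same chromosomes in the Dam-Lap2b profile.

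Along the chromosomes the Lap2b-higher bins thinned out away from the start. Mouse autosomes carry the centromere at the start of their coordinates. The share was 9.81% in the first of 10 equal parts, 9.90% in the third, 6.52% in the sixth and 2.49% in the last. The opposite difference rose from 1.41% to 11.9%. The first 5 parts had the higher share on 17 of 19 autosomes, with 8.93% against 4.64% in all, and chromosomes 16 and 17 were the exceptions.

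Domains, fragment length and reads were set beside this decline. Within both lists the share fell from 5.22% in the first part to 0.684% in the last, and in neither list from 13.4% to 3.804%. Median fragment length moved from 267 to 284 bp, and the adjusted difference reached 1 in 7.85% and 1.77% of bins. Median Dam-Lamin A reads per bin were 426 in the first part and 605 in the last, whereas Dam-Lap2b reads were 583 and 556. These reads enter the values that chose the bins, so they restate the decline and do not measure depth apart from it. In the 3 Mb nearest the start 404 bins (7.12%) were Lap2b-higher and in the 3 Mb nearest the end 144 (2.53%), but only 15 of 19 autosomes had this order.

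**Figure D5:**
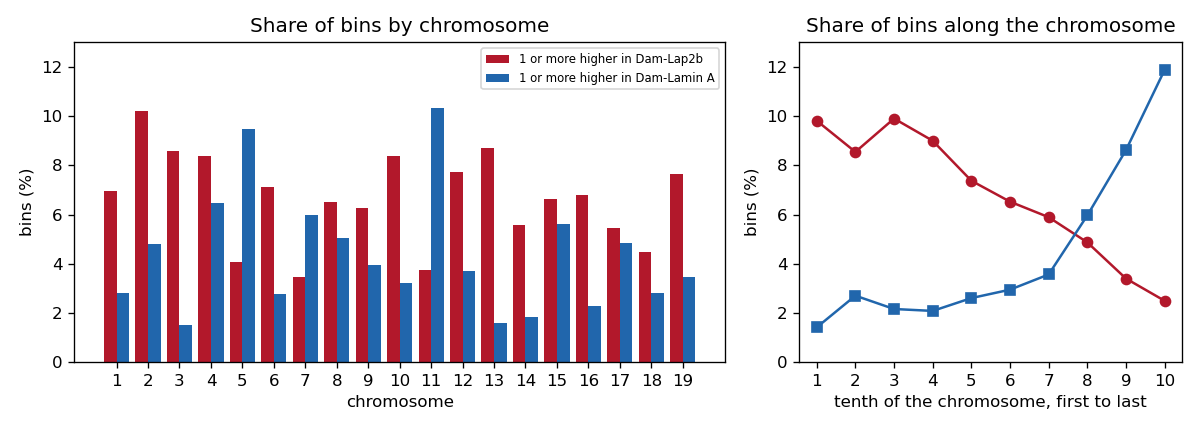
Left, percent of bins per autosome that were 1 or more higher in the Dam-Lap2b profile (red) or in the Dam-Lamin A profile (blue). Right, the same shares in 10 equal parts of the chromosomes from start to end; the red line falls from 9.81% to 2.49% and the blue line rises from 1.41% to 11.9%.

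The number of Lap2b-higher bins depended on how fragments were averaged. With at least 20 fragments per bin 6876 of 192586 bins (3.57%) met the rule, and with fragments weighted by their length 44643 bins (18.7%) did. The intervals and errors above cover counting of bins and the spread of fragments, not differences between cell preparations.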

How the data were processed

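Per the submitters' processing notes, reads were mapped with Bowtie to mm9; counting, normalization and the domain caller are not given in the sources used here. The authors deposited log2 values per fragment between GATC sites, the same 6415372 fragments in both profiles, and domain lists without scores. The log2 values as deposited had the form of a constant (0.0846 and 0.0222, the most frequent values) plus log2((fusion reads + 1)/(reference reads + 1)). With denominators up to 20, 71.5% of 200000 fragments gave whole numbers with 1 common denominator, against 0.009% with shifted constants and 42.9% when the partner value was exchanged. The smallest whole numbers (99.9983% of fragments) summed to 139050991 Dam-Lamin A, 151484785 Dam-Lap2b and 153547690 reference reads, all lower bounds. A common reference cancels from the difference.

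Samples were grouped by the labelled group. Bins with fewer than 10 fragments (357 of 239514) were left out. A bin belonged to a domain when its middle lay in it. For the length-adjusted difference, the mean over all autosomal fragments of the same 25 bp length class was taken off. With 1 sample per group no test was run. The regions named are the 10 longest runs, the 5 largest differences, the 3 bins on each side of the threshold and the chromosomes with the highest and lowest share; further windows, domains and chromosomes were named after their values were seen. Bins and settings were chosen with earlier results of these data known. The reference tables are in another build, so genes and sequences were not placed on bins. Scripts (Python 3.11.15, numpy 2.4.6, pandas 2.3.3, scipy 1.17.1, matplotlib 3.10.9) were tested on simulated data, and 17 alternative settings were run.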

Additional observations from a re-analysis of the deposited data

Results flagged for a closer look

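Chromosome X lay outside the autosomal rule. Of its 16160 bins with at least 10 fragments, 1782 (11.03%) were 1 or more higher in the Dam-Lap2b profile and 87 (0.538%) in the Dam-Lamin A profile, against 6.77% and 4.4% on the autosomes. The former averaged −0.54 in the Dam-Lamin A profile and 0.78 in the Dam-Lap2b profile. This share was above that of each autosome. No control sample gives a background for it and the difference was not tested.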

How the results depend on the processing

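The direction of the main description, a low Dam-Lamin A level, was kept in 13 of 14 settings. The exception was the opposite difference, by construction. The other 13 settings again chose bins for a higher Dam-Lap2b level, which favours this direction, so its return is no independent support. The numbers moved. With at least 20 fragments, 6876 bins met the rule, 65.75% in neither list and 17.6% in runs of 2 or more, and the Dam-Lap2b mean was −0.073 in place of 0.18. Bins of 20 kb gave 3784 bins, 67.9% in neither list, 18.3% in the Dam-Lamin A list alone, 26.7% in runs and a Dam-Lap2b mean of −0.10. Weighting by length gave 44643 bins, with 46.7%, 12.95% and 55.6% for these 3 shares and higher means of −0.80 (Dam-Lamin A) and 0.60 (Dam-Lap2b), and a difference of 1.5 or more gave 3250, with 62.9%, 19.1% and 14.25%. Without change of the count by over 1.5 times, the 3 shares were 51.55%, 17.7% and 25.95% with equal mean and SD, 61.1%, 14.1% and 39.9% with summed whole numbers, 61.2%, 17.5% and 29.9% with the length-adjusted difference (Dam-Lap2b mean −0.015) and 63.65%, 14.0% and 36.8% with fragments of 200 to 1000 bp. The last 2 settings were added after the data were seen. Medians gave 56.6% in neither list and 13.4% in the Dam-Lamin A list alone, and bins wholly inside a domain gave 58.9% and 15.7%. Subtracting the most frequent value gave 15.96% in the Dam-Lamin A list alone and 35.9% in runs, and leaving out fragments at that value gave 33.75% in runs. The opposite difference gave 10524 bins, 66.8% in neither list, 0.390% in the Dam-Lamin A list alone and 45.5% in runs, with means of 0.22 (Dam-Lamin A) and −1.15 (Dam-Lap2b). The cause of these moves was not tested.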
